A study of Homo sapiens with 6 samples.

Results

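The genes described here were the 19 Wnt ligand genes (WNT1 to WNT16), the 10 Frizzled receptor genes (FZD1 to FZD10) and 10 genes of secreted Wnt inhibitors (SFRP1, SFRP2, FRZB, SFRP4, SFRP5, DKK1, DKK2, DKK3, DKK4 and WIF1), chosen by name and not by any measured value. The choice was made with earlier results of these data known. These 39 genes were followed among 20015 protein-coding genes of GENCODE 44 on hg38. Their promoters, taken as 1500 bp on either side of every annotated transcript start, were read in 6 sequential chromatin immunoprecipitation (reChIP-seq) libraries of parental, untreated NCI-H661 cells, a single line from a metastasis of lung large cell carcinoma that expresses the chromatin factors DPPA2 and DPPA4. Chromatin of crosslinked cells was bound by 1 antibody, released and bound by another, in 3 conditions of 2 biological replicates each: H3K4me3 and then H2AK119ub (K4–K119), H2AK119ub and then H3K4me3 (K119–K4), and rabbit IgG at both steps (IgG–IgG). Each library had its own list of peaks over genomic input, with reads and input reads per peak. All 3 conditions shared the cells and the genotype and differed in the antibodies, and no RNA was measured in these libraries, so the label of the line was not checked against marker genes here.

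Wnt proteins are secreted lipid-modified ligands that bind Frizzled receptors, which span the membrane and, with LRP5 or LRP6, either stabilize beta-catenin or act through cell polarity and calcium pathways. SFRP proteins, FRZB and WIF1 bind Wnt ligands outside the cell, whereas the DKK1, DKK2 and DKK4 proteins bind LRP5 and LRP6. H3K4me3 is placed by trithorax-type methyltransferases at active and poised promoters and H2AK119ub by the Polycomb complex PRC1, and promoters of Wnt genes are well known as Polycomb targets in stem cells and tumours. The comparisons below address which of these promoters yielded fragments carrying both marks, whether the order of the antibodies mattered, and what IgG–IgG listed there.

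The sequences of 3 genes show the range of promoters among these genes. Each run has 250 bases before and 30 bases from the transcript start, written 5′ to 3′ in the direction of transcription, with every CpG dinucleotide in capitals. FZD8 had the most reads among the receptors and WNT8A had no larger peak in any library. WNT5B, chosen after its values were seen, had its peaks at a distal start and not at its main one. The FZD8, WNT8A and main WNT5B runs are from RefSeq promoters of GRCh38.p14 and lie at chr10:35642267-35642546 (minus strand), chr5:138083783-138084062 (plus strand) and chr12:1628981-1629260 (plus strand). The distal WNT5B run was read from hg38 at chr12:1530569-1530848 (plus strand).
FZD8, canonical start: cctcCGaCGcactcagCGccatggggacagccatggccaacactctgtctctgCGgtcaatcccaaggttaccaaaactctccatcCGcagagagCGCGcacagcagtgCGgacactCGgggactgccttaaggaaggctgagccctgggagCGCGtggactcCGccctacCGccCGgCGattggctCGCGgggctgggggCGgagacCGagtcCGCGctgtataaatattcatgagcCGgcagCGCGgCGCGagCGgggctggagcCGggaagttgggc
WNT8A, canonical start: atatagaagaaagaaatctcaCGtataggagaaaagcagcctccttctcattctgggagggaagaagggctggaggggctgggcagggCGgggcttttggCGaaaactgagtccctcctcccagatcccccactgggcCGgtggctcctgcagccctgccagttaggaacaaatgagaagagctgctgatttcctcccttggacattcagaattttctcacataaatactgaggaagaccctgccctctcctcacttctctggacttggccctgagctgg
WNT5B, canonical start: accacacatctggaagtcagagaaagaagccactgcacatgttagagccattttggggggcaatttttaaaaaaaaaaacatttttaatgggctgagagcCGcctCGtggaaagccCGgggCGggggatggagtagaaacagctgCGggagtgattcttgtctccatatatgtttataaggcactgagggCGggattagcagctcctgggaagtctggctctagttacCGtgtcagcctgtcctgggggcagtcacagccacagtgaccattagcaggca
WNT5B, distal start: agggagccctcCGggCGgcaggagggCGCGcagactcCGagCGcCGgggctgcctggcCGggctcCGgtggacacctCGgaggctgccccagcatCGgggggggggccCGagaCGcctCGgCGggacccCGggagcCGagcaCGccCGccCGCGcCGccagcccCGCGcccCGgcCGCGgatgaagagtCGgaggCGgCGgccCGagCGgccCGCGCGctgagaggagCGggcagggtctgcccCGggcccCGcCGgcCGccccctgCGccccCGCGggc
The 4 runs held 28, 4, 7 and 43 CpG dinucleotides, in the order printed, and the G and C content was 66.4%, 53.9%, 51.1% and 83.9%. The distal start of WNT5B was thus the richest of these in CpG and its canonical start was close to WNT8A. RefSeq promoters at the canonical start were matched for 27 of the 39 genes. In their 300 bases, the letters GGGCGG, on either strand, were found in 25 of the 27 (92.6%), and in 56.8% of 21613 entries of protein-coding genes. The letters TATAAA, on either strand, were found in 3 of the 27 (DKK1, FZD8 and WNT5B) and in 9.45% of entries. The median number of CpG per 300 bases was 30 and 21. The 21613 entries were not limited to canonical starts, as those of the 27 genes were, so these shares and medians are not like for like.

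The libraries differed in reads and in scaling. The lists do not give the number of sequenced reads. The 4 reChIP libraries held 749681 to 1977663 reads in kept peaks, that is, peaks with a log2 fold over input above 1 and a false discovery rate (FDR) below 0.05, against 58980 and 65433 in IgG–IgG. Most kept peaks had 2 reads (65.9% to 96.1%), the fewest listed, so a peak of 10 or more reads is called a larger peak here. K4–K119 replicate 1 stood apart. The scale of input implied by its folds was 0.328 reads per input read, against 3.62 to 4.74 in the other 3 reChIP libraries. In IgG–IgG replicates 1 and 2 it was 0.797 and 1.01. The requirement of a log2 fold above 1 therefore kept 104200 of its 104207 peaks, and a larger peak there is a weaker statement than in the other libraries. No reChIP with IgG at the second step alone was used here, so the contribution of fragments with 1 of the marks was not tested. The reads sum over many cells, and more cells with both marks cannot be told apart from more marked nucleosomes per cell.

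Both orders of antibodies gave reproducible overlapping peaks at 7 of the 39 Wnt genes: the ligand genes WNT5B, WNT7B and WNT11, the receptor genes FZD2, FZD3 and FZD8, and DKK3 among the inhibitors. These reciprocal regions are places where peaks of both K4–K119 replicates overlapped by more than 25% of both, likewise for K119–K4, and the merged peaks of both orders overlapped in the same way. Over all protein-coding genes, 20.9% had such a region at a promoter. The share of the Wnt genes was 17.9%, near the background by this definition. It was 3 of 19 ligands (15.8%), 3 of 10 receptors (30.0%) and 1 of 10 inhibitors (10.0%), and with so few genes no test of a difference between the roles was made. The same 7 genes had a kept larger peak in each of the 4 reChIP libraries, where the background was 19.7%. The count depended on the fold. Without a filter on the fold it was 16 genes (41.0%), against 30.2% of all genes, and with a log2 fold above 2 it was 2 (WNT7B and FZD8), against 6.27%. It was 15 without K119–K4 replicate 2, against 27.0% of all genes, and 11 without K4–K119 replicate 2, against 27.2%. Without K4–K119 replicate 1 or K119–K4 replicate 1 it was 7, against 21.0% and 21.5%. The reading of the Wnt genes against the background thus depended on the setting, and no test of it was made.

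**Figure D1:**
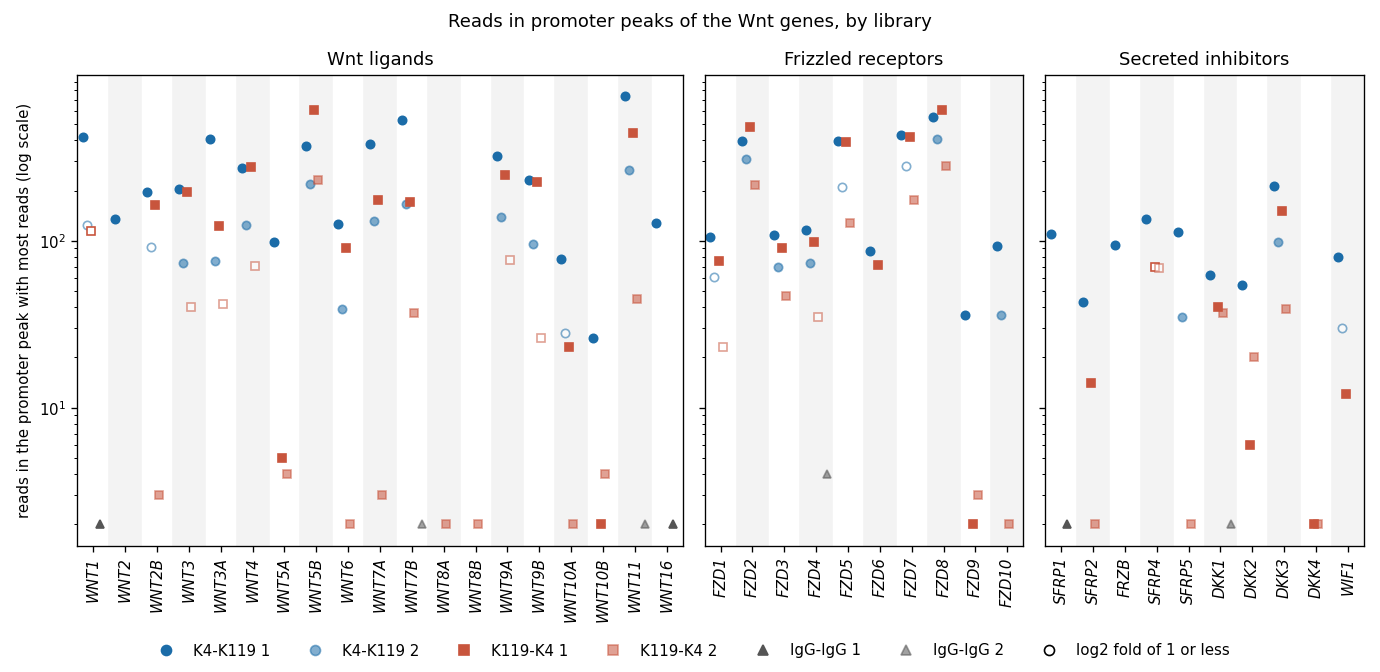
Reads in the promoter peak with most reads (vertical, log scale) for each Wnt ligand, Frizzled receptor and secreted inhibitor gene (horizontal), with 1 point per library. Blue circles are K4–K119, red squares K119–K4 and gray triangles IgG–IgG, paler for replicate 2, and open symbols are peaks with a log2 fold of 1 or less. FZD2 and FZD8 lie above 200 reads in all 4 reChIP libraries, IgG–IgG points lie at 2 to 4 reads, and WNT8A, WNT8B and DKK4 have points at 2 reads at most.

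Among the ligands, WNT5B encodes a Wnt protein that mostly signals without beta-catenin. Its promoter peak held 372 and 218 reads for K4–K119 and 612 and 232 for K119–K4, with 9 to 15 input reads. All 4 libraries had more than 200 reads, and no IgG–IgG peak lay at any WNT5B promoter. The region runs over 4000 bp at chr12:1529001-1533000 and holds 302 CpG. It does not contain the canonical start at 1629231 but the starts of 2 protein-coding transcripts of WNT5B, 99340 and 98412 bp upstream of it. No exon of the canonical transcript lies in the region, and the exons of these 2 transcripts were not read. At the canonical start, the 4 reChIP libraries together had 1 peak, of 2 reads in K119–K4 replicate 2. The region was lost when only canonical starts were used.

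WNT7B, a ligand with roles in lung development, had 532 and 167 reads for K4–K119 and 172 and 37 for K119–K4. The K119–K4 replicate 2 value was the lowest of the 4. The region of 4200 bp at chr22:45975201-45979400 extends from 2238 bp before to 1961 bp after the canonical start on the minus strand and covers exon 1 and part of intron 1. A further peak lay at an internal start 4447 bp downstream, with 181, 50 and 67 reads in K4–K119 replicates 1 and 2 and K119–K4 replicate 1, and no larger peak there in K119–K4 replicate 2. WNT11, which encodes a ligand of morphogenetic movements, had 736 and 266 reads for K4–K119. Its K119–K4 signal was 444 reads for replicate 1 and, for replicate 2, was split into peaks of 45 and 12 reads. Its region was the widest of the 7, with 6500 bp at chr11:76205301-76211800, and most of it was upstream, from 5298 bp before to 1201 bp after the start, with exon 1 inside. The WNT7B and WNT11 regions were not called with an overlap above 50% of both peaks. A 2-read IgG–IgG peak lay within the WNT11 region, which was not called when reChIP peaks overlapping IgG–IgG peaks were removed.

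FZD8 had the highest reads among the receptors, with 554 and 405 for K4–K119 and 606 and 282 for K119–K4, against 13 to 24 input reads. All 4 values were high and no IgG–IgG peak was listed. The FZD8 region was kept under each of the 17 alternatives tried. It covers 6000 bp at chr10:35638101-35644100, from 1804 bp upstream to 4195 bp downstream of the start. FZD8 has a single exon and the region covers 100.0% of the gene, together with MIR4683 and the start of the non-coding gene ENSG00000287528, whose signal cannot be separated from that of FZD8. FZD2, also a gene of a single exon, had 394 and 311 reads for K4–K119 and 484 and 216 for K119–K4. Its region of 5100 bp at chr17:44557101-44562200 likewise covers 100.0% of the gene, starting 383 bp before its start. In unscaled reads, replicate 2 was lower than replicate 1 of the same order at both genes, whereas in the scaled values given with the order comparison it was higher. FZD3, a receptor known from axon guidance and planar polarity, had fewer reads, with 108 and 70 for K4–K119 and 90 and 47 for K119–K4, over 4 to 7 input reads. Its region of 1900 bp on chromosome 8 lies around exon 1, from 611 bp before to 1288 bp after the start. The FZD3 peaks held far fewer reads than those of FZD2 and FZD8 but were found in all 4 libraries.

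DKK3, a divergent Dickkopf protein that is not known to bind LRP6 in the way of DKK1, was the only inhibitor gene with a region by the main definition. It had 213 and 99 reads for K4–K119 and 150 and 39 for K119–K4, with 4 to 8 input reads and no IgG–IgG peak. The region of 2600 bp at chr11:12007501-12010100 extends from 1474 bp before to 1125 bp after its canonical start and covers exon 1. The DKK3 reads were highest in K4–K119 replicate 1 and lowest in K119–K4 replicate 2.

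**Figure D2:**
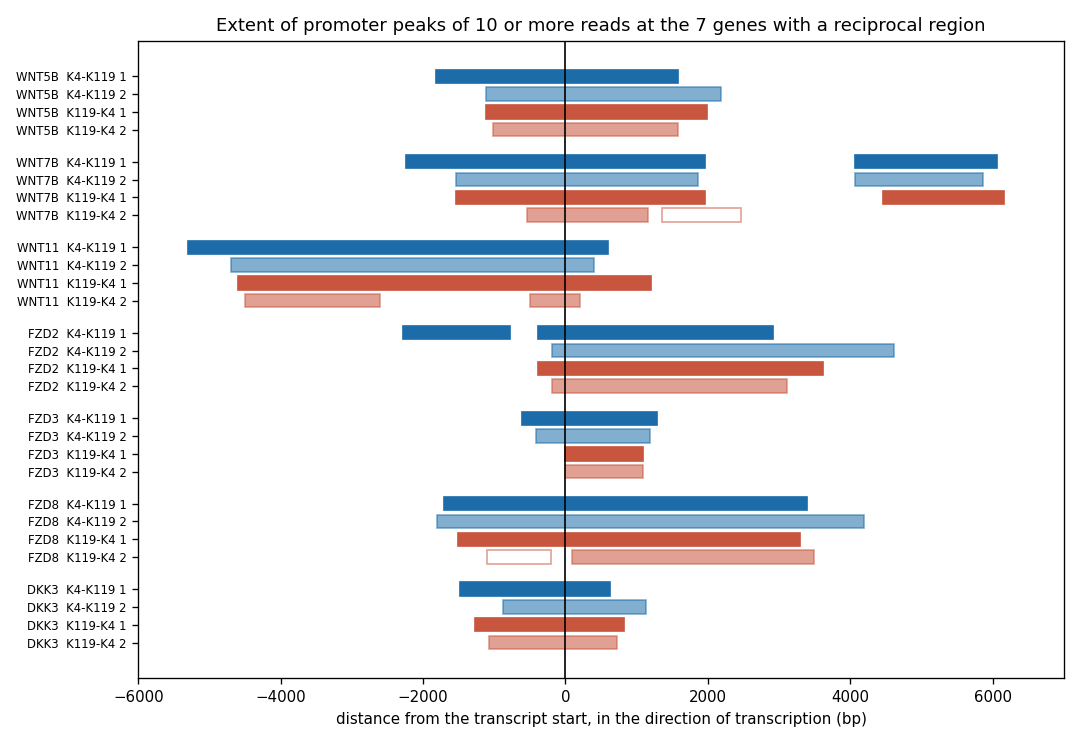
Extent of promoter peaks of 10 or more reads (horizontal, distance in bp from the transcript start in the direction of transcription) in each reChIP library (vertical, 4 lines per gene) at the 7 genes with a reciprocal region. Blue bars are K4–K119, red bars K119–K4, paler for replicate 2 and outlined only for a log2 fold of 1 or less, and WNT5B is placed at its distal start. The WNT11 peaks extend mostly upstream, and those of FZD2 and FZD8 mostly downstream into the gene.

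The regions at these genes were mostly wide. Their median width was 4200 bp, against 2200 bp for the 3714 reciprocal regions at promoters. Among all 4020 reciprocal regions, WNT11 was at the 99.2nd percentile of width, FZD8 at the 98.9th, FZD2 at the 97.7th, WNT7B at the 95.0th and WNT5B at the 93.9th. DKK3, at the 67.4th percentile, and FZD3, at the 39.9th, were not wide. Merging joins the peaks of 4 libraries, so these widths are not those of 1 library. In single libraries, the centre of the larger peak at the canonical start lay downstream of the start in 9 of 10 receptors in K4–K119 replicate 1, and in 5 of 5, 8 of 8 and 5 of 5 in K4–K119 replicate 2 and K119–K4 replicates 1 and 2. For ligands it was 9 of 15, 3 of 8, 7 of 10 and 1 of 2, whereas over all genes the share was 77.9%, 82.8%, 82.6% and 85.8%. Receptor peaks thus lay mostly over the gene, as did those of most genes, and ligand peaks lay on both sides of the start.

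Most Wnt genes without a reciprocal region still had reChIP reads. The libraries with a kept larger peak numbered 3 for 11 of the 39 genes, against 11.8% of all genes, 2 for 9 genes, against 12.6%, and 1 for 9 genes, against 26.7%. Of the 9 genes with 1 library (WNT1, WNT2, WNT5A, WNT10B, WNT16, FZD9, SFRP1, FRZB and SFRP4), each had it in K4–K119 replicate 1, the library with the low input scale. That library had a kept larger peak at 70.6% of all genes, against 26.4% to 39.4% in the other reChIP libraries. The share over all genes with 1 library was not computed. Of the 11 genes with 3 libraries, 8 lacked K119–K4 replicate 2 (WNT3, WNT3A, WNT4, WNT6, WNT7A, WNT9A, WNT9B and FZD4) and 3 lacked K4–K119 replicate 2 (FZD5, FZD7 and DKK1). Over all 2354 genes with 3 libraries, 52.9% lacked K119–K4 replicate 2 and 41.8% lacked K4–K119 replicate 2. The missing library did list a larger peak, with a log2 fold of 1 or less, in 6 of the 8 and 2 of the 3 Wnt genes. Over all genes it did so in 442 of 1245 that lacked K119–K4 replicate 2 and in 719 of 985 that lacked K4–K119 replicate 2.

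Of the ligands in this class, WNT3A, which activates beta-catenin signaling, had 406 and 76 reads in K4–K119 and 123 in K119–K4 replicate 1, whereas its 42 reads in K119–K4 replicate 2 had a log2 fold of 0.54. WNT4, known from kidney and gonad development, had 272, 124 and 276 kept reads, and 71 reads at a log2 fold of 0.71 in K119–K4 replicate 2. WNT9A had 322, 139 and 249 kept reads, and 77 reads at a log2 fold of 0.50. All 3 genes thus had overlapping peaks in every reChIP library, with the lowest reads in K119–K4 replicate 2, and their absence from the 7 rested on the fold in that library. WNT9B had 232, 96 and 224 kept reads and 26 reads at a log2 fold of 0.84 in K119–K4 replicate 2. WNT3 had 205, 74 and 195 kept reads and 40 at a log2 fold of 0.66. The WNT3 peaks were not at its canonical start, where no peak had more than 2 reads, but at internal starts 46405 to 47245 bp downstream. WNT7A, a ligand of limb and neural development, had 383, 131 and 175 reads and WNT6 had 127, 39 and 91 reads, and neither had a larger peak in K119–K4 replicate 2. In WNT2B, kept peaks of 195 and 163 reads in K4–K119 replicate 1 and K119–K4 replicate 1 lay at the canonical start, with 92 reads at a log2 fold of 0.96 in K4–K119 replicate 2. Its reproducible K4–K119 peak was another, of 100 bp and 2 reads, 43565 bp upstream.

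WNT1, the founding mammalian member of the family, had 419 reads in K4–K119 replicate 1 over 4100 bp. This peak ran from before the start into exon 4 and covered 85.6% of the gene. Its peaks of 125 reads in K4–K119 replicate 2 and 115 reads in K119–K4 replicate 1 had log2 folds of 0.74 and 0.51 and were not kept, and no K119–K4 replicate 2 peak was listed. WNT5A, the closest relative of WNT5B, had 99 reads in K4–K119 replicate 1 and at most 5 reads in a peak of another library. The 2 paralogs therefore differed in these lists, WNT5B having larger peaks in 4 reChIP libraries and WNT5A in 1. WNT2 and WNT16 had 135 and 128 reads in K4–K119 replicate 1, and no other larger peak. WNT10A had 78 and 23 kept reads in K4–K119 replicate 1 and K119–K4 replicate 1, and 28 reads at a log2 fold of 0.83 in K4–K119 replicate 2. WNT10B had 26 kept reads in K4–K119 replicate 1. WNT8A and WNT8B, embryonic ligands, had 1 peak of 2 reads each, in K119–K4 replicate 2.

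Among receptors without a region, FZD7, a receptor of stem and progenitor cells, had 431 reads for K4–K119 replicate 1 and 420 and 176 reads in K119–K4. Its 282 reads in K4–K119 replicate 2 were spread over 5100 bp with 46 input reads and had a log2 fold of 0.63. FZD5 had 398 reads in K4–K119 replicate 1 and 390 and 128 reads in K119–K4, and its 211 reads in K4–K119 replicate 2 had a log2 fold of 0.88. At both genes the K4–K119 replicate 2 peak held more reads than the kept peak of K119–K4 replicate 2, yet was below the fold. FZD4, the receptor of the ligand norrin in retinal vessels, had 116, 74 and 99 kept reads and 35 reads at a log2 fold of 0.95 in K119–K4 replicate 2. FZD1 had 105 and 76 kept reads in replicate 1 of K4–K119 and of K119–K4, and 61 and 23 reads below the fold in each replicate 2. FZD6 had 87 and 72 reads in the same replicate 1 libraries, and FZD10 had 93 and 36 reads in K4–K119 alone. FZD9 had 36 reads in K4–K119 replicate 1, and its reproducible K119–K4 peak rested on 2 and 3 reads.

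In 9 of the 10 inhibitors, DKK4 being the exception, the peak with most reads was in K4–K119 replicate 1. DKK1, an inhibitor that binds LRP6, had 62 reads in K4–K119 replicate 1 and 40 and 37 reads in K119–K4, over identical intervals of 1000 bp from exon 1 to exon 2, and no larger peak in K4–K119 replicate 2. SFRP5 had 113 and 35 reads in K4–K119 and at most 2 reads in a K119–K4 peak. SFRP4 had 136 reads in K4–K119 replicate 1, whereas 70 and 69 reads in K119–K4 had log2 folds of 0.43 and 0.79. SFRP1 and FRZB, which bind Wnt ligands, had 110 and 94 reads in K4–K119 replicate 1 and no other larger peak. SFRP2 had 43 and 14 reads, and WIF1 80 and 12 kept reads, in replicate 1 of K4–K119 and of K119–K4. WIF1 also had 30 reads at a log2 fold of 0.93 in K4–K119 replicate 2. DKK2 had 54 reads in K4–K119 replicate 1 and 20 reads in K119–K4 replicate 2. DKK4 had no larger peak, and its reproducible K119–K4 peak rested on 2 reads in each replicate.

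When the orders were read one at a time, 11 ligands had a reproducible peak in K4–K119 and 4 in K119–K4, and inhibitors numbered 2 and 3. The ligand count in K119–K4 rested on the fold and on both replicates: it was 9 with no filter on the fold, against 13 in K4–K119, and 12 or 14 from 1 replicate. Peaks shared by both K4–K119 replicates lay at promoters of 18 Wnt genes (46.2%), against 33.0% of all genes. They were 11 ligands, 5 receptors (FZD2, FZD3, FZD4, FZD8 and FZD10) and 2 inhibitors (SFRP5 and DKK3). Peaks shared by both K119–K4 replicates lay at 13 Wnt genes (33.3%), against 30.0% of all genes. They were 4 ligands, 6 receptors (FZD2, FZD3, FZD5, FZD7, FZD8 and FZD9) and 3 inhibitors (DKK1, DKK3 and DKK4). Those of WNT10B, FZD9 and DKK4 rested on 2 to 4 reads, and with at least 10 reads per peak the counts were 17 and 10 genes. The counts with at least 10 reads or with no filter on the fold are given without a share of all genes. They are not read against the background. From 1 replicate, the K4–K119 count was 36 in replicate 1, against 78.2% of all genes, and 18 in replicate 2, against 52.3%. Counting any kept peak, the share of Wnt genes in replicate 2 alone was thus below that of all genes. Of the kept peaks of that library, 79.3% had 2 reads. With larger peaks only, the share there was 43.6%, against 29.7% of all genes. The K119–K4 count was 29 in replicate 1, against 64.1% of all genes, and 26 in replicate 2, against 61.4%.

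In single libraries, 36 of the 39 Wnt genes had a kept larger peak in K4–K119 replicate 1, where 70.6% of all genes had one. In K4–K119 replicate 2 it was 17 Wnt genes, against 29.7% of all genes, in K119–K4 replicate 1 it was 24, against 39.4%, and in K119–K4 replicate 2 it was 11, against 26.4%. For ligands the numbers over these 4 libraries were 17, 10, 12 and 3 of 19, so K119–K4 replicate 2 had the fewest. Receptors numbered 10, 5, 8 and 5 of 10, and inhibitors 9, 2, 4 and 3 of 10. The share of ligands was above that of all genes in the first 3 libraries and below it in K119–K4 replicate 2, whereas the share of receptors was above it in all 4. The difference between K119–K4 replicates at ligand promoters was thus a difference within 1 condition. No kept larger peak in any reChIP library was found for 3 Wnt genes (WNT8A, WNT8B and DKK4), or 7.69%, against 29.2% of all genes. When any deposited peak of 10 or more reads counted, whatever its fold, 16 Wnt genes had one in each reChIP library (8 ligands, 7 receptors and DKK3), against 28.8% of all genes.

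**Figure D3:**
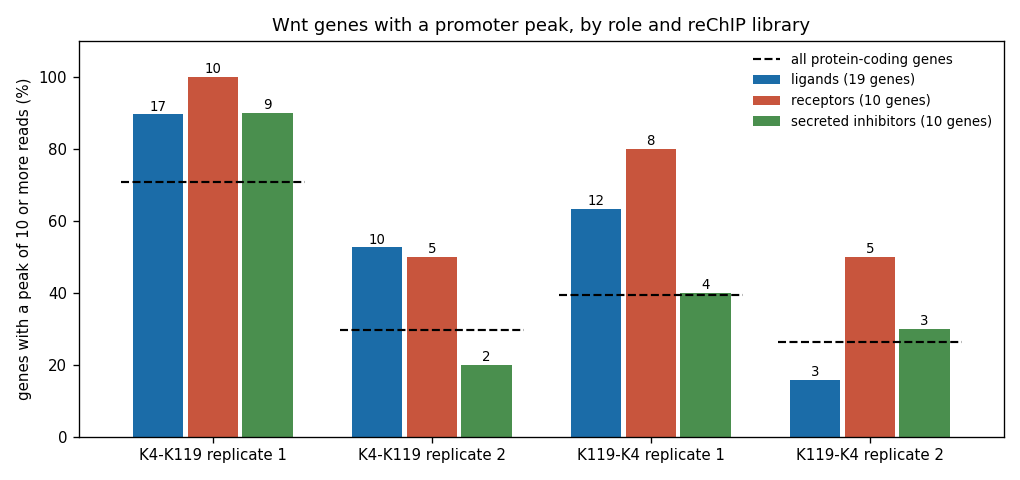
Share of genes with a kept promoter peak of 10 or more reads (vertical, %) in each reChIP library (horizontal), for 19 ligands (blue), 10 receptors (red) and 10 secreted inhibitors (green), with the number of genes above each bar. The dashed lines mark all protein-coding genes. The ligand bar is above the line in the first 3 libraries and below it in K119–K4 replicate 2, with 3 of 19 genes.

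Where peaks were present, ligand peaks held the most reads in K4–K119 replicate 1, with a median of 232 over 17 genes, against 112 over 10 receptors, 94 over 9 inhibitors and 74 over all genes with a peak. In K4–K119 replicate 2, the medians of kept promoter peaks were 124 for 11 ligands, 74 for 5 receptors and 67 for 2 inhibitors, with 22 over all genes. In K119–K4 replicate 1, they were 174 for 14 ligands, 99 for 9 receptors and 13 for 6 inhibitors, with 43 over all genes. In K119–K4 replicate 2, they were 3.5 for 12 ligands, 87.5 for 8 receptors and 11 for 6 inhibitors, with 4 over all genes. The median of ligands was thus above that of receptors in each reChIP library but K119–K4 replicate 2. There, 3 of the 12 ligands had a larger peak. Such medians cover only genes with a kept peak and are given as descriptions.

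The IgG–IgG lists held few reads at these promoters, without scaling for depth. An IgG–IgG peak in either replicate lay at 7 of the 39 Wnt genes (WNT1, WNT7B, WNT11, WNT16, FZD4, SFRP1 and DKK1), or 17.9%, against 19.1% of all genes. Each had 2 reads and no input read, except FZD4 with 4 reads and 1 input read, and each was in 1 of the replicates alone. At FZD4, the same promoter held 116, 74, 99 and 35 reads in the 4 reChIP libraries, in the order used above. These reads are unscaled. The implied input scales of IgG–IgG, 0.797 and 1.01, were below the 3.62 to 4.74 of the reChIP libraries other than K4–K119 replicate 1. How far the signal stood above IgG–IgG at equal depth was not tested. With at least 3 reads per peak, FZD4 was the 1 Wnt gene left, and with at least 10 reads none was, nor any other gene. Reads outside peaks are not listed, so IgG–IgG reads below the caller's threshold were not seen.

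In the main test, which did not pair the replicates, the order of the antibodies gave no called difference at the 7 reciprocal regions. In edgeR's quasi-likelihood test over 4020 reciprocal regions, 0% were called higher in K4–K119 and 0% higher in K119–K4 at an adjusted p below 0.05, with 820 regions, 4 of them at Wnt genes, below 0.05 before adjustment. DESeq2 called 14 regions higher in K4–K119 and 29 higher in K119–K4. With replicate number as a block in edgeR, 431 regions were called higher in K4–K119 and 575 higher in K119–K4. At Wnt genes these were WNT7B, WNT11 and DKK3, higher in K4–K119, and WNT5B, higher in K119–K4. The labels give replicate numbers and do not say whether the replicates of both orders were made in pairs. Values are CPM, reads scaled by TMM to a common total over the reciprocal regions. WNT7B had 705 and 416 for K4–K119 and 230 and 118 for K119–K4, so the orders did not overlap. Its log2 ratio of K4–K119 over K119–K4 was 1.64 ± 0.35 (SE, n = 2 per order), with an adjusted p of 0.11 in edgeR. DESeq2 did call WNT7B, with an adjusted p of 0.00634, and over all alternatives its log2 ratio was between 1.12 and 2.27 and its adjusted p between 1.05e-17 and 0.214. WNT11 had 976 and 663 for K4–K119 and 594 and 181 for K119–K4, a log2 ratio of 1.03 ± 0.44 (SE, n = 2 per order), with an adjusted p of 0.235 in edgeR. Here too the orders did not overlap, but K119–K4 replicate 2 was far below the other 3. WNT7B was called without K4–K119 replicate 2, at 1.97, and without K119–K4 replicate 1, at 2.27, and WNT11 likewise, at 1.29 and 2.19.

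WNT5B went the other way, with 499 and 556 for K4–K119 and 819 and 738 for K119–K4, and a log2 ratio of -0.57 ± 0.19 (SE, n = 2 per order, adjusted p = 0.159 in edgeR). DKK3 had 282 and 247 for K4–K119 and 201 and 124 for K119–K4, and a log2 ratio of 0.67 ± 0.28 (SE, adjusted p = 0.23 in edgeR). None of these 4 genes passed this edgeR test, and each was called with replicate number as a block. At the receptors the orders overlapped or nearly so. FZD8 had means of 872 and 854, with a log2 ratio of 0.03 ± 0.21 (SE), FZD2 had means of 672 and 667, with 0.01 ± 0.21, and FZD3 had means of 158 and 134, with 0.24 ± 0.28. Signs that small turned with the settings at all 3 genes. Only reads of kept peaks were counted, and the covered length at WNT7B fell from 4200 and 3400 bp in K4–K119 to 3500 and 1700 bp in K119–K4. With an offset for that length, the median log2 ratio of all regions was -0.30 and that of WNT7B was 1.12.

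**Figure D4:**
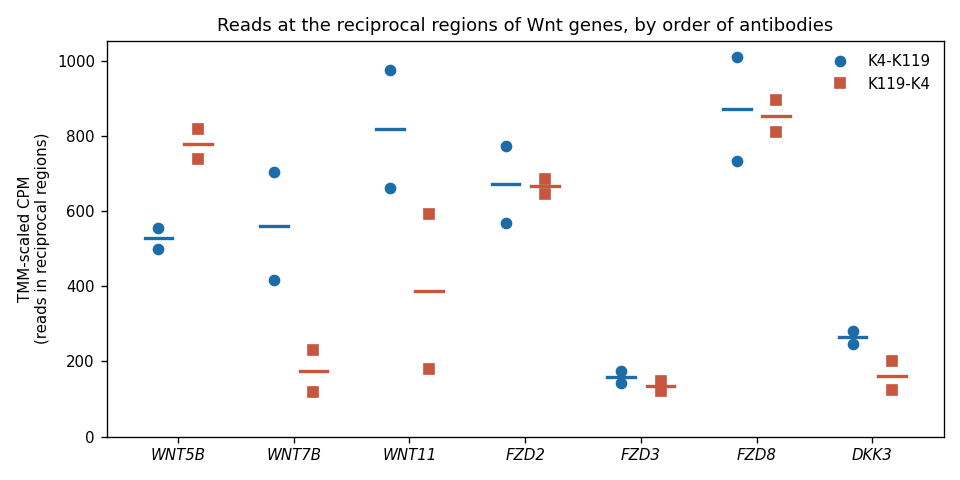
TMM-scaled CPM of reads in reciprocal regions (vertical) at the 7 Wnt genes with a reciprocal region (horizontal), for K4–K119 (blue circles) and K119–K4 (red squares), with 1 point per replicate and a bar at the mean of both. K4–K119 is above K119–K4 at WNT7B, WNT11 and DKK3 and below it at WNT5B, and the means at FZD2 and FZD8 lie almost at the same height.

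Wnt genes had CpG-rich promoters. By the main definition, among promoters rich in CpG, a smaller share of them had a region than of all genes. This difference was not tested and depended on the setting. Within 1500 bp of the canonical start, the median was 170 CpG for the 39 genes, against 115 over all genes. It was 165 for ligands, 232 for receptors and 128 for inhibitors. All genes were divided into 3 groups of about equal size by this count. In the group with 144 to 438 CpG, 6 of 26 Wnt genes had a reciprocal region, against 44.5% of all genes there. In the group with 89 to 143 CpG it was 1 of 10 (WNT5B, by its distal start), against 15.5%, and in the group with 2 to 88 CpG 0 of 3, against 3.19%. With no filter on the fold, WNT3, WNT3A, WNT4, WNT9A, WNT9B, FZD1, FZD4, FZD5 and FZD7 also had a region. All of them were in the group richest in CpG, and the share of all genes there was not computed in that setting. WNT8A, WNT8B and DKK4, the 3 genes without a larger peak, had 41, 22 and 49 CpG, the lowest of the 39. High CpG did not always go with a region. FZD10, with 309 CpG, and FZD7, with 306, had the most CpG of the 39 and no region by the main definition. FZD9, with 237 CpG, had a larger peak in 1 library. How CpG content bears on the peaks was not tested.

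**Figure D5:**
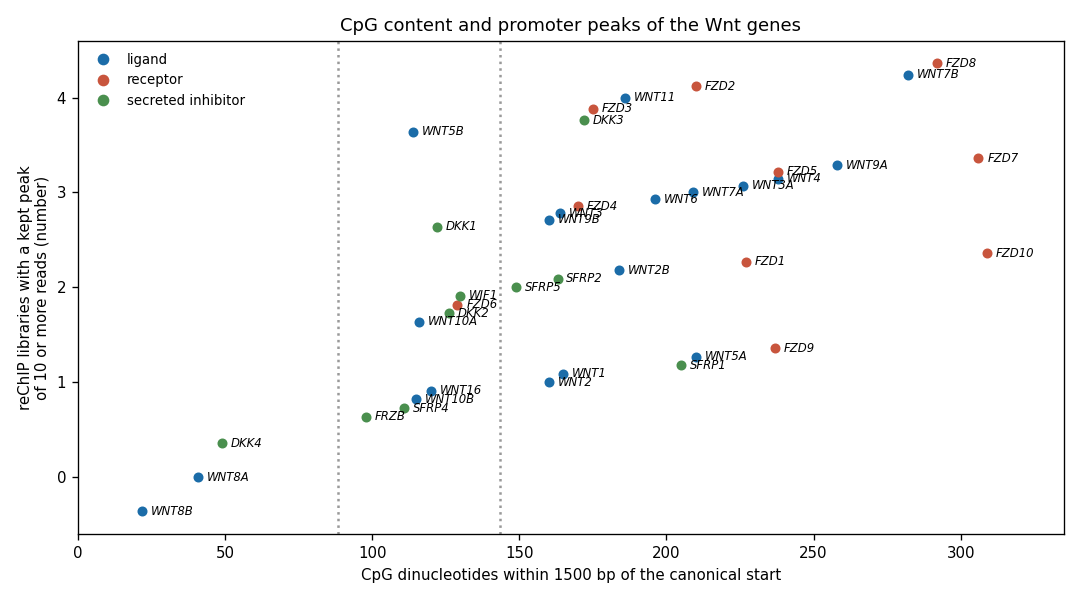
CpG dinucleotides within 1500 bp of the canonical start (horizontal) and the number of reChIP libraries, 0 to 4, with a kept promoter peak of 10 or more reads (vertical, with genes of one number spread within its row for legibility), for ligands (blue), receptors (red) and secreted inhibitors (green). Dotted lines divide all genes into 3 groups of about equal size by CpG count. The 3 genes at 0 libraries are the 3 with the fewest CpG, and the 7 at 4 libraries have 114 to 292.

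The remaining Wnt pathway was read for comparison in 46 genes of a list made by function, of which 23 had a reciprocal region, against 20.9% of all genes. Of 8 genes counted as co-receptors, 7 had a region (LRP5, LRP6, ROR2, RYK, PTK7, KREMEN1 and KREMEN2). Of 3 genes counted under secretion (PORCN, WLS and NOTUM), 1 had a region (PORCN). It was 2 of 9 genes of R-spondins, their receptors and ligases (LGR4 and ZNRF3) and 0 of 5 other antagonists. Cytoplasmic transducers numbered 8 of 13 and nuclear genes 5 of 8. KREMEN1, KREMEN2 and NOTUM could also be placed among the antagonists, which would change these counts. The co-receptor LRP5, which pairs with Frizzled receptors, had 379 and 150 reads for K4–K119 and 433 and 162 for K119–K4. Among transducers, NKD2, an inhibitor of Dishevelled, had 621 and 290 reads and 768 and 217 reads, DVL1, a Dishevelled gene, had 415 and 205 reads and 498 and 209 reads, and AXIN2, a feedback inhibitor, had 413 and 231 reads and 498 and 151 reads. BCL9L, a beta-catenin cofactor, had 774 and 410 reads and 581 and 289 reads. The reads at these 5 genes ranged from 150 to 774 per library, against 282 to 606 at FZD8. All of these genes were named for being among those with the most reads in their group, so the ranges do not compare the groups. An IgG–IgG peak lay at a promoter of LRP5 and of NKD2, and none at DVL1, AXIN2 or BCL9L. The list of 46 genes too was made with earlier results of these data known. A difference between these lists and the ligands, receptors and inhibitors was not tested.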

How the data were processed

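The 6 libraries of NCI-H661 reChIP-seq were used, grouped by the targets in the labels. According to the submitters' processing notes, Trim Galore 0.6.6, BWA 0.7.13 on hg38, SAMtools 1.9 and Picard 2.6.0 were used. The authors called peaks per replicate with EPIC2 in bins of 100 bp against genomic input. The deposited counts of reads and input reads per peak are whole and unscaled. The deposited p-value and FDR compare reads with input inside a library, the deposited log2 fold is the ratio of reads to scaled input, and the deposited score is a multiple of that fold, limited at a maximum, and was not used.

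As in the study, a kept peak had an FDR below 0.05 and a log2 fold above 1, but blacklisted regions were not excluded. Kept peaks were merged where replicates overlapped by more than 25% of both. Promoters were 1500 bp either side of any GENCODE 44 transcript start. Copies on Y of genes on X were left out. All 39 genes matched by symbol. Orders were compared with edgeR 4.0.16 (quasi-likelihood, TMM, Benjamini-Hochberg adjustment over 4020 regions), in which the counts were reads of kept peaks overlapping a region. DESeq2 1.42.0 was an alternative. Scripts were tested on simulated data. Alternatives were other filters on fold, FDR, reads and input reads, other rules of overlap and promoters, removal of IgG–IgG peaks, a replicate block, other scalings and each library left out. The order comparison without a filter on the fold was added after the data were seen. Every one of the 39 genes could be named by the rule for named genes, other pathway genes by their reads, and sequences by reads within a role. The members and lists were chosen with earlier results of these data known. Python 3.11.15, R 4.3.3, numpy 2.4.6, pandas 2.3.3, pysam 0.24.0 and matplotlib 3.10.9 were used.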

Additional observations from a re-analysis of the deposited data

How the results depend on the processing

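The number of Wnt genes with a reciprocal region, 7, was 5 to 8 under 13 of 17 alternatives. With a log2 fold above 2 it was 2 (1 ligand, 1 receptor, 0 inhibitors), and with no filter on the fold 16 (8 ligands, 7 receptors). With an overlap over 50% of both peaks 1 ligand was left. Leaving out each reChIP library in turn gave 7 to 15 genes, of which 3 to 10 were ligands, 3 to 5 receptors and 1 to 2 inhibitors. Overlapping the orders within each replicate number first, as a replicate block, gave 7. Kept peaks of 1 K4–K119 replicate, not shared, lay at 18 to 36 genes, against 52.3% to 78.2% of all genes (ligands 11 to 17, receptors 5 to 10, inhibitors 2 to 9). Shared K4–K119 peaks lay at 8 receptors with no filter on the fold. Kept peaks of 1 K119–K4 replicate lay at 26 to 29 genes, against 61.4% to 64.1% of all genes (ligands 12 to 14, inhibitors 6). Shared K119–K4 peaks lay at 21 genes with no filter on the fold, 9 of them ligands. IgG–IgG peaks lay at 1 Wnt gene with a minimum of 3 reads or of 1 input read, and at 0 with a minimum of 10 reads. They lay at 3 Wnt genes in replicate 1 and 4 in replicate 2, where 2056 and 2139 of 20015 genes had one. These counts moved with how many peaks each setting admits. Those given without a share of all genes are not read against the background.

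In the order comparison, the main test called 0 regions. DESeq2 called 14 higher in K4–K119 and 29 higher in K119–K4 (1 Wnt gene), the offset for covered length 12 and 173 (1 Wnt gene), and library sizes from all kept peaks 7 and 0. Leaving out each library in turn gave 0 to 96 and 0 to 60, with 0 to 2 Wnt genes. With replicate number as a block, 431 and 575 regions were called, 4 of them at Wnt genes (WNT5B -0.58, WNT7B 1.69, WNT11 1.12 and DKK3 0.68). Differences between replicates 1 and 2 correlated at r = 0.363 between the orders over 4020 regions, but with 2 pairs the samples share only a number. Signs turned at the receptors alone: FZD2 -0.41, FZD3 -0.42 and FZD8 -0.46 with the offset for covered length, FZD2 -0.02 and FZD8 0.00 under the block, FZD2 -0.23 to 0.22 and FZD8 -0.21 to 0.24 when each library was left out, and FZD2 -0.06 and FZD8 -0.09 with no filter on the fold. The cause was not tested. Peaks below the threshold of the caller have no reads listed. Each of the 11 Wnt genes with a kept larger peak in 3 libraries lacked it in a replicate 2 library. For 8 genes this was K119–K4 replicate 2, where 6 had a larger peak at a log2 fold of 1 or less. For 3 it was K4–K119 replicate 2, where 2 had such a peak. Over all 2354 genes with 3 libraries, 52.9% and 41.8% lacked these libraries. How depth bears on this was not tested.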

Other observations

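With no filter on the fold, 9 further Wnt genes had a reciprocal region (WNT3, WNT3A, WNT4, WNT9A, WNT9B, FZD1, FZD4, FZD5 and FZD7), and the order of the antibodies could be read at them, in a setting added after the data were seen. At WNT3A, 410 and 76 reads lay in peaks of K4–K119, against 123 and 42 of K119–K4, a log2 ratio of 1.24 ± 0.43 (SE, adjusted p = 0.158 in edgeR). At FZD7 it was 566 and 282 reads against 524 and 223, a log2 ratio of -0.02 ± 0.18 (SE, adjusted p = 0.964 in edgeR), and at FZD5 398 and 211 reads against 390 and 128, a log2 ratio of 0.11 ± 0.21 (SE, adjusted p = 0.797 in edgeR). None of the 16 regions passed the test, with 3 below 0.05 before adjustment.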
